A study of Mus musculus with 2 samples.

Results

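The transforming growth factor-β (TGF-β) system was described through 10 genes: the ligands Tgfb1, Tgfb2 and Tgfb3, the receptors Tgfbr1, Tgfbr2, Tgfbr3 and Eng, the latency protein Ltbp1, and the intracellular mediators Smad3 and Smad7. They were chosen by gene name from the 44291 genes listed, and all 10 had a row in both libraries. TGF-β ligands are secreted in a latent form, bound to their own propeptide and to latent TGF-β binding proteins that anchor them in the extracellular matrix. Once released, a ligand brings together the type II receptor and the type I receptor, which phosphorylates SMAD2 and SMAD3, while SMAD7 is induced by the pathway and inhibits it. In skeletal muscle TGF-β is known as a driver of matrix production by fibro-adipogenic progenitors (FAPs), the mesenchymal cells that can turn into fibroblasts or adipocytes.

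RNA-seq was performed on primary mouse FAPs of wild-type genotype, which per the methods were sorted by flow cytometry from hind limb muscle of C57BL/6 mice. One library came from cells treated with platelet-rich plasma (PRP) and the other from cells given vehicle, called control or vehicle here, and both cultures were then kept in adipogenic induction medium that contained IBMX, dexamethasone and insulin. Each group had 1 library, so there were 2 in all. The labels name the treatment PRP, whereas the methods of the study describe exosomes isolated from PRP, and the names on the labels are kept. The PRP of the paper came from human donors, and for its transcriptome of FAPs the paper names exosomes from young donors. How many animals or cultures stand behind each library is not given in the sources used here. The differences below therefore have no replicate check, they compare these 2 libraries rather than the treatments, and no p-value is given.

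Levels are in FPKM, reads scaled by exon length and by the total assigned to genes, so that they can be compared between genes. Assigned to genes were 40120843 reads with PRP and 34139741 with vehicle. The members rested on 233 to 3820 reads per library. Ratios of PRP to control FPKM are given with a 95% counting interval, which covers counting error only and not the variation between cultures. The log2 fold change is the difference of log2(FPKM + 1), PRP minus control, and where FPKM are low its size is below that of the plain log2 ratio. It was computed for the 13401 genes whose FPKM averaged at least 1, of which 6815 were higher and 6586 lower with PRP, the median being 0.01. Levels were measured in bulk, so fewer cells of a type and less RNA per cell cannot be told apart.

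All 4 receptor genes were lower in the PRP library, Tgfbr3 by far the most, and both SMAD genes, Ltbp1 and Tgfb2 were higher. The intervals of Tgfb1 and Tgfb3 included no change. On the log2(FPKM + 1) scale 0 of the 10 members reached a 2-fold difference, against 2.83% of the 13401 genes in either direction. At 1.5-fold, 1 member was lower, against 4.57% of the genes, and 0 were higher, against 6.15%. The counting interval lay above no change for 4 members, against 26.1% of the 12369 genes that had an interval. It lay below no change for 4 members, again against 26.1%. The median log2 fold change of the 10 members was -0.05, beside 0.01 over all genes tested.

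**Figure D1:**
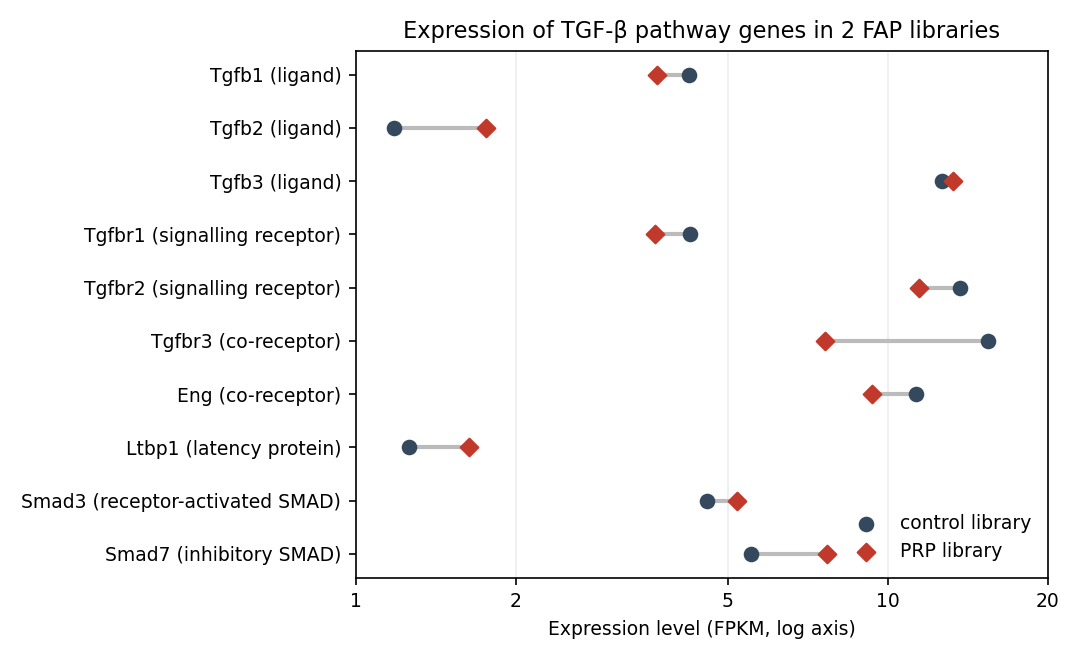
Level of each of the 10 genes in FPKM (log axis) in the control library (circles) and the PRP library (diamonds), 1 library per group, with a line joining the values of a gene. The 4 receptor genes and Tgfb1 sit lower in the PRP library and the other 5 genes higher, and the longest line is that of Tgfbr3, from 15.4 to 7.64.

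Tgfb3 was the most abundant of the ligand genes in both libraries. Tgfb3 (ENSMUSG00000021253, chromosome 12, 86056745 to 86079041, minus strand; all gene positions are on mm10) had 13.3 FPKM with PRP and 12.6 FPKM with vehicle. Its ratio was 1.05 with an interval of 0.952 to 1.16, which includes no change. The antisense genes Gm37804 and Gm48008 overlap 12.4% of its exon length, and since it is not stated whether strand was used in counting, reads of these genes cannot be told apart from its own.

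Tgfb1 encodes the ligand best known for fibrosis, which platelets also carry. Tgfb1 (ENSMUSG00000002603, chromosome 7, 25687002 to 25705077, plus strand) had 3.69 FPKM with PRP and 4.23 FPKM with vehicle. The ratio was 0.872 and its interval, 0.753 to 1.01, includes no change.

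Tgfb2, whose product binds the type II receptor weakly on its own, was the rarest of the ligand genes and the one with the widest difference. Tgfb2 (ENSMUSG00000039239, chromosome 1, 186622792 to 186705989, minus strand) had 1.76 FPKM with PRP and 1.18 FPKM with vehicle, from 408 and 233 reads. The ratio was 1.49 with an interval of 1.18 to 1.89, and its log2 fold change of 0.34 was above that of 84.8% of the genes tested.

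The make-up of the ligand mRNA was otherwise close in the 2 libraries. Summed over the 3 genes the level was 18.7 FPKM with PRP and 18.05 FPKM with vehicle, and Tgfb3 made up 70.9% and 70.0% of it. The share of Tgfb1 was 19.7% with PRP and 23.4% with vehicle, and that of Tgfb2 was 9.38% and 6.53%. Relative to Tgfb1 the level of Tgfb2 was 0.279 with vehicle and 0.476 with PRP, a ratio of 1.71 between the libraries with an interval of 1.31 to 2.24. Relative to Tgfb3 it was 0.0932 and 0.132, a ratio of 1.42 (interval 1.11 to 1.82). These intervals leave out 1, so the shift between Tgfb2 and the other ligand genes was larger than counting error.

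**Figure D2:**
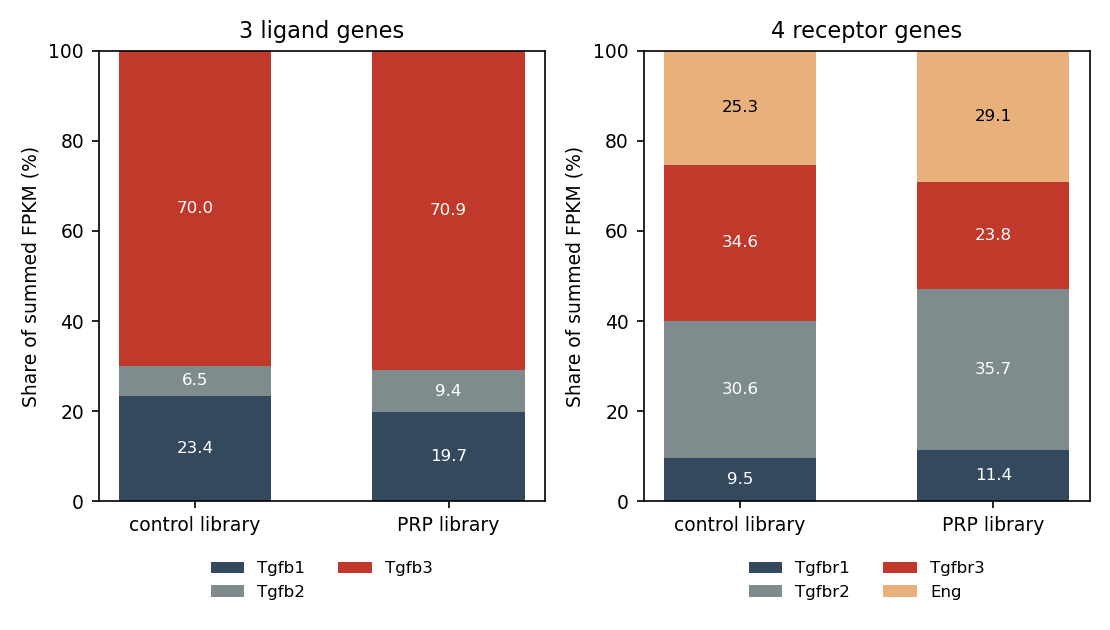
Share of each gene in the summed FPKM (%) of the 3 ligand genes (left) and of the 4 receptor genes (right), with the control library as the left bar and the PRP library as the right bar of each pair. Tgfb3 makes up 70.0% and 70.9% of the ligand mRNA, while the share of Tgfbr3 in the receptor mRNA is 34.6% with vehicle and 23.8% with PRP.

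The signalling receptors were slightly lower in the PRP library. Tgfbr2 (ENSMUSG00000032440, chromosome 9, 116084293 to 116175360, minus strand), the type II receptor that binds the ligand first, had 11.5 FPKM with PRP and 13.7 FPKM with vehicle. Its ratio was 0.838, with an interval of 0.786 to 0.894. Tgfbr1 (ENSMUSG00000007613, chromosome 4, 47353222 to 47414931, plus strand), the type I receptor ALK5 that phosphorylates SMAD2 and SMAD3, had 3.65 FPKM with PRP and 4.24 FPKM with vehicle, a ratio of 0.862 (interval 0.757 to 0.981). Both intervals leave out no change, but differences of this size were common. The log2 fold changes of -0.24 for Tgfbr2 and -0.17 for Tgfbr1 were still above those of 20.4% and 26.9% of the genes tested. The balance between both receptors was close in the 2 libraries, with a Tgfbr1 level of 0.319 of that of Tgfbr2 with PRP and 0.310 with vehicle. The ratio between the libraries was 1.03 (interval 0.892 to 1.18).

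Tgfbr3 encodes betaglycan, a membrane proteoglycan without kinase activity that presents TGF-β, TGF-β2 above all, to the type II receptor, and that traps ligand when it is shed from the cell. On chromosome 5, from 107106570 to 107289629 on the minus strand, Tgfbr3 (ENSMUSG00000029287) had 7.64 FPKM from 2005 reads in the PRP library and 15.4 FPKM from 3451 reads in the control library. The ratio was 0.494 with an interval of 0.457 to 0.535. The log2 fold change was -0.93, just short of the 2-fold threshold because of the pseudocount of 1, and 152 of the 13401 genes tested (1.13%) had a lower one. In the main text of the paper, a transcriptome of FAPs given exosomes or vehicle was crossed with predicted targets of the microRNAs taken up below. Tgfbr3 was the only gene in both lists. Its low level here and its seed matches may thus reflect how it was picked, and its place among the members is a description. A predicted gene on the same strand, Gm43422, shares 4.54% of its exon length.

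Eng encodes endoglin, the other co-receptor, which also takes part in BMP9 signalling through ALK1 and is best known from endothelial cells. Eng (ENSMUSG00000026814, chromosome 2, 32646595 to 32682669, plus strand) had 9.33 FPKM with PRP and 11.3 FPKM with vehicle. The ratio was 0.824 (interval 0.745 to 0.912), close to that of the signalling receptors. The endothelial markers Pecam1, at 0.19 and 0.05 FPKM, and Cdh5, at 0.09 and 0.10 FPKM in the PRP and control libraries, were near 0, and Cldn5 was listed at 0 in both. Of the 10 endothelial markers 8 were below 1 FPKM in both libraries, and the list summed to 9.76 FPKM with PRP and 5.57 FPKM with vehicle. The exceptions were Kdr, at 4.23 FPKM with PRP and 1.499 FPKM with vehicle, and Tek, at 4.73 FPKM and 3.56 FPKM. Both were higher with PRP beyond counting error and made up most of that sum, so endothelial transcripts were not absent. The level of Eng alone was above that sum in the control library and close to it in the PRP library. The mesenchymal marker Pdgfrb stood at 68.5 FPKM with PRP and 88.7 FPKM with vehicle. Which cells the Eng mRNA came from was not tested.

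The receptor mRNA as a whole was lower in the PRP library and its make-up differed. The 4 receptor genes summed to 32.1 FPKM with PRP and 44.7 FPKM with vehicle. Tgfbr3 went from the largest share, 34.6% in the control library, to 23.8% in the PRP library, where Tgfbr2 with 35.7% and Eng with 29.1% were above it. Relative to Tgfbr2 the level of Tgfbr3 was 1.13 with vehicle and 0.666 with PRP, a ratio of 0.590 (interval 0.533 to 0.652). Relative to Tgfbr1 the ratio between the libraries was 0.574 (interval 0.494 to 0.666), and relative to Eng it was 0.600 (interval 0.528 to 0.681). The lower level of Tgfbr3 was therefore not shared in size by any of the other 3 receptor genes, beyond counting error. Eng against Tgfbr2 gave 0.983 (interval 0.873 to 1.11). Markers of FAPs were lower as well, summing to 491.5 FPKM with PRP and 782.1 FPKM with vehicle, and their part in the lower receptor levels was not tested.

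**Figure D3:**
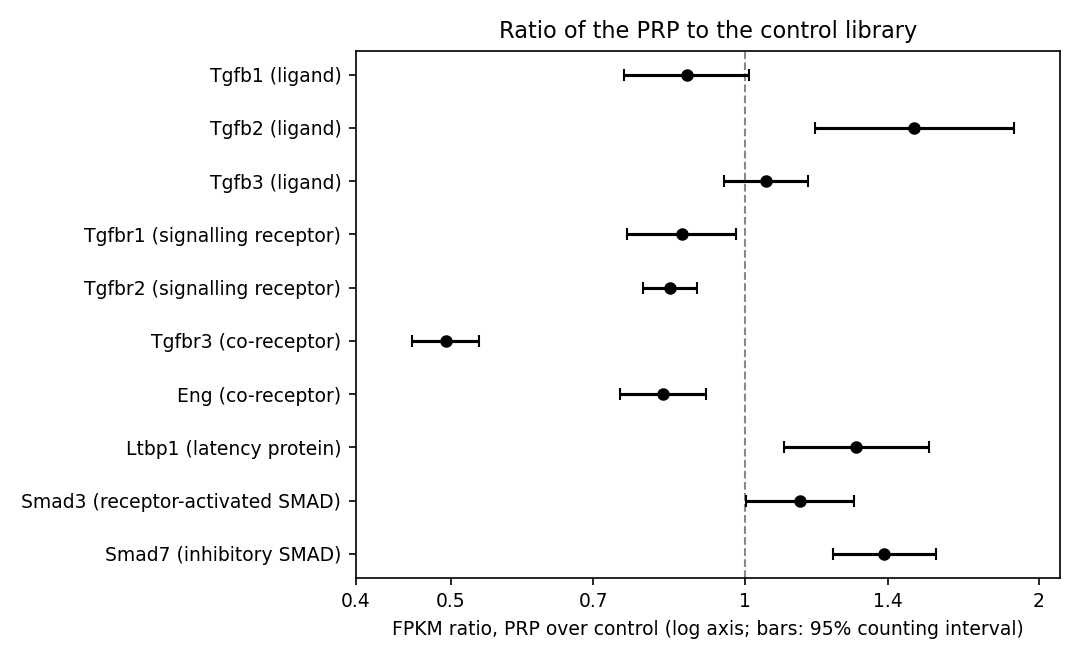
Ratio of the FPKM in the PRP library to that in the control library (log axis) for each of the 10 genes, with bars for the 95% counting interval, which does not include variation between cultures. Tgfbr3 lies at 0.494, apart from the other receptor genes at 0.824 to 0.862, and the intervals of Tgfb1 and Tgfb3 cross the dashed line at no change.

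The study followed the microRNAs let-7f and miR-16 as cargo of PRP exosomes and Tgfbr3 as their shared target, so the 3′UTRs of the members were searched for both seed matches. A microRNA pairs with its target mainly through its seed, bases 2 to 8, which are in capitals in the mature mouse sequences from RefSeq (GRCm38.p6) shown first. The lines after them show the matches in Tgfbr3, and in Tgfbr1, the other member with a match to both, with the 7 matched bases in capitals and the mRNA strand given from 5′ to 3′ on mm10.
let-7f-5p: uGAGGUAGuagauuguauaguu
miR-16-5p: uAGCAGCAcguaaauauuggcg
Tgfbr3, let-7f match, chr5:107106958-107106982, minus strand: ctttttgtactgtaaCTACCTCatg
Tgfbr3, miR-16 match, chr5:107109322-107109346, minus strand: ttttttttttttttaTGCTGCTttg
Tgfbr1, let-7f match, chr4:47410828-47410852, plus strand: aggaggctggttgttCTACCTCact
Tgfbr1, miR-16 match, chr4:47412233-47412257, plus strand: gttgggtcttctcacTGCTGCTgga

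Both let-7f matches are followed by an A in the mRNA and the miR-16 matches shown are not. The Tgfbr3 3′UTR of 3069 bases held 1 match to each seed, and the Tgfbr1 3′UTR of 4154 bases also held 1 match to each. Since the paper picked Tgfbr3 partly as a predicted target of both microRNAs, its matches are no independent support. Of 10287 tested genes with an annotated 3′UTR, 9.85% had the let-7f match CTACCTC and 24.6% the miR-16 match TGCTGCT, and 4.02% had both. Among the 10 members, 2 had the let-7f match and 7 had the miR-16 match, namely Tgfb3, Tgfbr1, Tgfbr2, Tgfbr3, Eng, Smad3 and Smad7. Thus all 4 receptor genes held a miR-16 match, and so did 3 members that were not lower in the PRP library. The ratios of Tgfbr1 and Tgfbr3 were 0.862 and 0.494, and whether the matches bear on these levels was not tested here. For Tgfbr3 the paper reports binding of both microRNAs to the 3′UTR in a reporter assay. It also reports lower TGFBR3 mRNA and protein after either was transfected. The 3′UTR of Tgfbr2 is longer still, at 6085 bases, and that of Tgfb1 has 135 bases and neither match. The 3′UTR of Tgfbr3 was longer than that of 85.5% of these genes and that of Tgfbr1 than that of 93.2%. A match describes the sequence and not binding.

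Ltbp1 encodes a latent TGF-β binding protein, which is disulfide-linked to the propeptide and tethers the latent ligand to matrix. Ltbp1 (ENSMUSG00000001870, chromosome 17, 75005568 to 75392512, plus strand) had 1.63 FPKM with PRP and 1.26 FPKM with vehicle. The ratio was 1.30 with an interval of 1.10 to 1.54. Relative to Tgfb1 its level was 0.443 with PRP and 0.297 with vehicle, a ratio of 1.49 (interval 1.20 to 1.86).

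Smad7 encodes the inhibitory SMAD that recruits ubiquitin ligases to the type I receptor, and it is itself a rapid target of TGF-β signalling. Smad7 (ENSMUSG00000025880, chromosome 18, 75367529 to 75395935, plus strand) had 7.70 FPKM with PRP and 5.55 FPKM with vehicle. The ratio was 1.39 (interval 1.23 to 1.57), and its log2 fold change of 0.41 was the highest of the members and above that of 88.5% of the genes tested. Smad3 (ENSMUSG00000032402, chromosome 9, 63646767 to 63757994, minus strand), the receptor-activated SMAD, had 5.20 FPKM with PRP and 4.57 FPKM with vehicle. Its ratio of 1.14 was barely outside counting error, with an interval of 1.003 to 1.29. The level of Smad7 relative to Smad3 was 1.48 with PRP and 1.21 with vehicle, a ratio of 1.22 (interval 1.03 to 1.45).

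The order of the members' levels differed between the libraries. In the control library Tgfbr3 was the highest, followed by Tgfbr2, Tgfb3, Eng, Smad7, Smad3, Tgfbr1, Tgfb1, Ltbp1 and Tgfb2. The neighbours Tgfbr2 and Tgfb3, Smad3 and Tgfbr1, Tgfbr1 and Tgfb1, and Ltbp1 and Tgfb2 did not differ beyond counting error. In the PRP library the order was Tgfb3, Tgfbr2, Eng, Smad7, Tgfbr3, Smad3, Tgfb1, Tgfbr1, Tgfb2 and Ltbp1, so that Tgfbr3 stood at place 5. Here Smad7 and Tgfbr3, Tgfb1 and Tgfbr1, and Tgfb2 and Ltbp1 did not differ beyond counting error. Set among all genes tested by mean FPKM, the members ranged from Ltbp1, above 10.4% of them, to Tgfb3, above 72.5%.

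**Figure D4:**
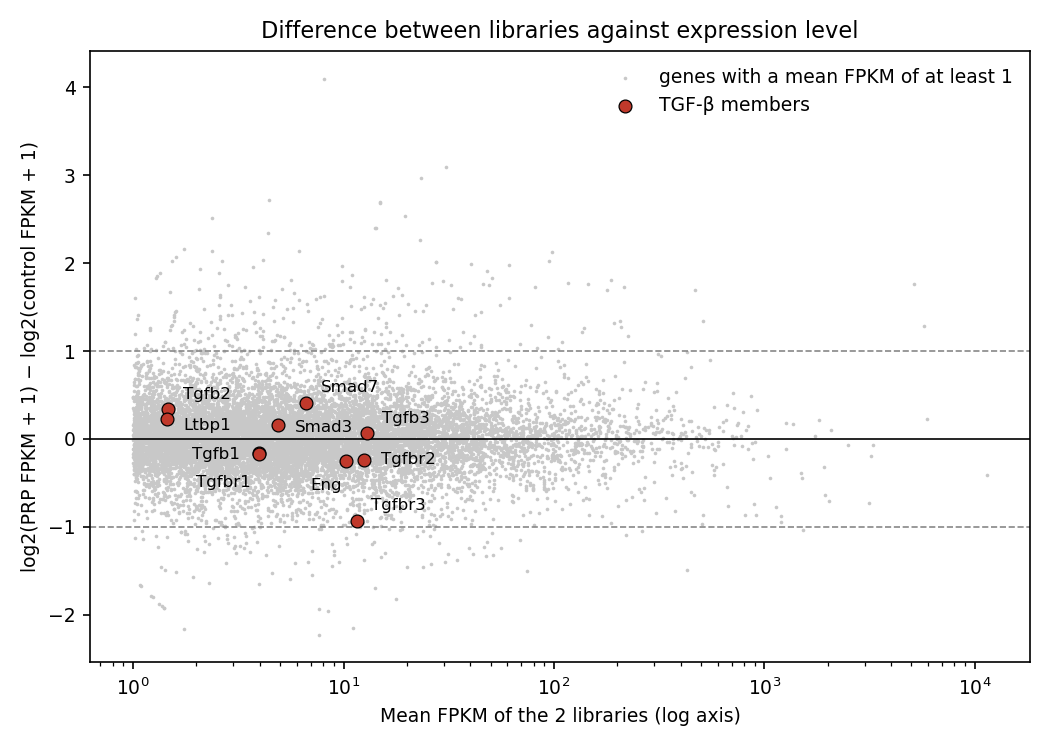
Difference of log2(FPKM + 1), PRP minus control, against the mean FPKM of the 2 libraries (log axis), with 1 grey point per gene for the 13401 genes tested and the 10 members in red; dashed lines mark 2-fold. Tgfbr3 lies at -0.93, near the lower edge of the cloud, and the other 9 members lie within it, between -0.25 and 0.41.

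Other genes of the pathway were described by function. The genes that process, store or release latent TGF-β were mostly lower in the PRP library. Of 21 listed, 15 averaged at least 1 FPKM, and 13 of these were lower and 2 higher, with a median log2 fold change of -0.34 beside 0.01 for all genes. Without the filter on low values the median was -0.11. The counting interval lay below no change for 10 of the 15 and above it for 0, against 26.1% of all genes in each direction. At 1.5-fold, 2 were lower, against 4.57% of all genes. Emilin1, which encodes a matrix glycoprotein that holds back TGF-β processing, had 27.9 FPKM with PRP and 53.7 FPKM with vehicle. Fbn1, which encodes fibrillin-1, the microfibril that latent binding proteins attach to, had 67.4 FPKM and 118.1 FPKM. Thbs1, an activator of latent TGF-β and the most abundant gene of the list, had 348.2 FPKM and 475.4 FPKM. Itgb1, the integrin β1 subunit, had 244.0 FPKM and 252.6 FPKM. Ltbp1 thus differed in direction from 13 of these 15 genes, of which 10 were lower beyond counting error. Among the other latent binding protein genes tested, Ltbp2 had 2.13 FPKM with PRP and 1.96 FPKM with vehicle, with an interval that includes no change. Ltbp3 had 8.46 FPKM and 13.0 FPKM, a ratio of 0.652 (interval 0.609 to 0.697).

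Secreted and surface partners of the ligands had a median of -0.14 over the 11 of 13 genes tested, with 8 lower and 3 higher. The interval lay below no change for 7 and above it for 1, against 26.1% of all genes each way. Aspn, which encodes asporin, a small leucine-rich proteoglycan that binds TGF-β, had 2.58 FPKM with PRP and 12.6 FPKM with vehicle, a ratio of 0.204 (interval 0.166 to 0.249). It was the 1 gene of this list with a 2-fold difference, against 2.83% of all genes in either direction. At 1.5-fold, 2 genes were lower and 0 higher, against 4.57% and 6.15% of all genes. Htra3, which encodes a secreted serine protease, had 0.780 FPKM and 1.68 FPKM. The most abundant partners, Fstl1 and Bgn, had 249.2 against 274.6 FPKM and 171.7 against 214.8 FPKM.

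The other type I and type II receptors of the superfamily resembled the 4 receptor members in direction. All 6 genes tested of 9 listed were lower with PRP, with a median of -0.28, and the interval of each lay below no change. Of all genes tested, 6586 of 13401 were lower, and 26.1% of those with an interval had it below no change. At 1.5-fold, 1 gene was lower and 0 were higher, against 4.57% and 6.15% of all genes. The gene was Acvr2a, an activin type II receptor, at 2.38 FPKM with PRP and 5.43 FPKM with vehicle. Its ratio was 0.437 (interval 0.376 to 0.507) and its log2 fold change of -0.93 was the same as that of Tgfbr3. Acvrl1, which encodes ALK1, the type I partner of endoglin, had 11.5 FPKM and 13.8 FPKM. Acvr1, which encodes the BMP type I receptor ALK2, had 6.70 FPKM and 8.28 FPKM.

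SMADs and the proteins that modulate them had a median of 0.06 over the 21 of 24 genes tested, with 16 higher and 5 lower. Of the 20 with an interval, 7 lay above no change, 3 below it and 10 included it, so the count above was near the 26.1% of all genes. At 1.5-fold, 2 were higher and 0 lower, against 6.15% and 4.57% of all genes. Nedd4l, which encodes a ubiquitin ligase for activated SMAD2 and SMAD3, had 9.67 FPKM with PRP and 5.74 FPKM with vehicle, but its reads could not be recovered, so it has no interval. Tgif1, which encodes a repressor of SMAD-dependent transcription, had 5.55 FPKM and 3.25 FPKM, a ratio of 1.71 (interval 1.49 to 1.96). The most abundant, Strap and Ski, had 58.0 against 53.1 FPKM and 24.4 against 25.9 FPKM.

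Genes known to be induced by TGF-β in fibroblasts moved in both directions. Of 29 listed, 27 were tested, 14 higher and 13 lower, with a median of 0.01, the same as for all genes. At 1.5-fold, 3 were higher and 7 lower, against 6.15% and 4.57% of all genes. Among the 26 with an interval 12 lay above no change and 11 below it, against 26.1% of all genes each way. Among the higher ones were Acta2, smooth muscle actin, at 570.3 FPKM with PRP against 286.1 FPKM with vehicle, and the AP-1 gene Junb, at 27.7 against 17.5 FPKM. The lowest were Itga11, the integrin α11 subunit that binds collagen, at 4.29 against 13.4 FPKM, Col3a1 at 26.9 against 53.7 FPKM, Col1a1 at 118.6 against 218.7 FPKM and Comp, a cartilage matrix protein, at 1.29 against 2.87 FPKM. The other 3 at 1.5-fold lower, named after their values were seen, were Postn, Col1a2 and Col5a1. Fn1, which encodes fibronectin and was the most abundant of the list by its mean, had 393.0 FPKM with PRP and 508.6 FPKM with vehicle. Each gene named so far among the lower ones encodes a matrix protein or a receptor for one. Acta2 and Junb encode a cytoskeletal protein and a transcription factor. This contrast rests on which genes were named and did not hold across the list. Snai2 and Bhlhe40, which also encode transcription factors and were named after their values were seen, were lower, at ratios of 0.75 and 0.823. Both intervals lay below no change. Not all matrix-associated genes of the list were lower. Ccn2, at 315.9 against 212.0 FPKM, and Timp1, at 128.7 against 111.0 FPKM, were higher by less than 1.5-fold, and were named after their values were seen.

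**Figure D5:**
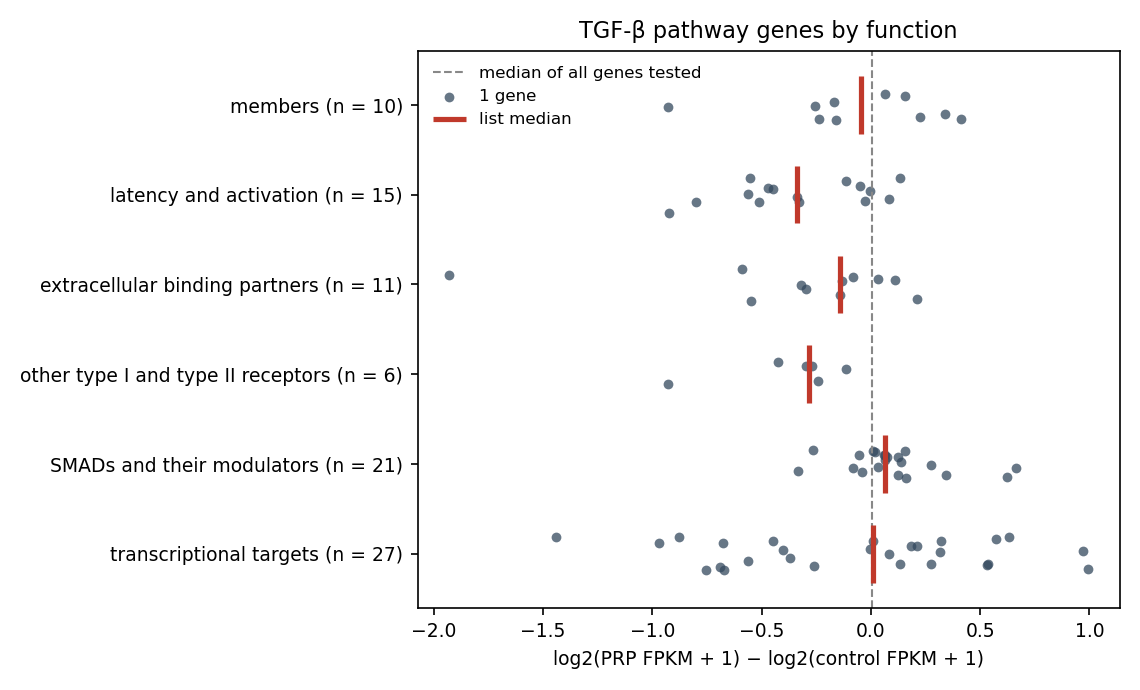
Difference of log2(FPKM + 1), PRP minus control, for the genes tested in each functional list (points, n in the axis labels, spread vertically at random for visibility), with the list median in red and the median of all genes tested as a dashed line. The medians of the latency and activation genes, -0.34, and of the other receptors, -0.28, lie to the left of it, and the transcriptional targets spread widely on both sides.

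The FAP markers tested were lower in the PRP library, as were the receptor genes, and the other marker lists varied in direction. Of 10 FAP markers, 9 were tested and all 9 were lower with PRP, each with an interval below no change. Of all genes tested, 6586 of 13401 were lower, and 26.1% of those with an interval had it below no change. Pdgfra, the FAP surface receptor, had 19.8 FPKM with PRP and 28.0 FPKM with vehicle, and Ly6a, which encodes SCA-1, had 59.9 FPKM and 66.4 FPKM. Lum was near 0, at 0.08 FPKM and 0.07 FPKM. Col1a1, Col3a1 and Dcn stand both in this list and in a pathway list. Most of the latency genes, the collagen genes among the transcriptional targets and these markers were lower together, and the part of any in the others was not tested. The 9 adipocyte markers summed to 140.9 FPKM with PRP and 146.3 FPKM with vehicle, with 7 tested, 5 of them higher and 2 lower. Lpl, at 67.4 and 83.3 FPKM, accounts for the lower sum. The interval lay above no change for 2, Pparg at 8.69 and 6.55 FPKM and Fabp4 at 40.7 and 33.6 FPKM. It lay below for 1, Lpl, and included no change for 4, against 26.1% of all genes each way. Platelet markers summed to 1.52 FPKM and 2.67 FPKM, with 7 of 8 below 1 FPKM in both libraries. These are mouse genes, whereas the PRP of the paper was human, so carry-over of RNA from PRP was not tested. Macrophage markers summed to 10.6 FPKM and 10.9 FPKM, with Ptprc at 0.01 FPKM and 0.02 FPKM. The 2 macrophage markers tested differed in opposite directions beyond counting error, Cd68 at 4.56 FPKM with PRP and 2.31 FPKM with vehicle and Lyz2 at 4.91 FPKM and 7.57 FPKM. Of the 8 mural cell markers 5 were below 1 FPKM in both libraries, and the list summed to 22.6 FPKM and 16.5 FPKM. Of the 3 tested, Myh11 was higher with PRP and accounts for the higher sum, and Cspg4 and Des were lower with intervals that include no change. Of the 7 myogenic markers with a row, Pax7 and Myog were listed at 0 in both libraries, and the list summed to 3.69 FPKM and 4.59 FPKM.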

How the data were processed

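Per the labels, TRIzol was used for RNA and a stranded mRNA kit for the libraries. Per the submitters' processing notes, the tools were fastp 0.23.4, STAR 2.5.3a and featureCounts, with the build mm10. The authors deposited 1 FPKM value per gene and library. The annotation release and the strand setting are not given in the sources used here. FPKM are not counts, so no count test was run.

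Gene identifiers were matched to GENCODE M21, which gave exon lengths for 41492 of 44291 genes. With these lengths 26406 of 28160 genes above 0 (93.8%) gave whole read numbers in each library, to within 0.001, as did all 10 members. Even read numbers were in excess among genes with 1 to 8 reads (79.3% and 80.3% of them), a pattern that arises if both mates of a pair are counted, so intervals used read numbers divided by 2. Intervals are exact Clopper-Pearson 95% intervals of the PRP share of fragments, turned into a ratio. Intervals of ratios between genes are on the log scale (Woolf). PCR duplicates are not accounted for.

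The log2 fold change used a pseudocount of 1 and genes averaging at least 1 FPKM. Gene lists were described by counts and medians. The 3′UTR searched was the longest of a gene's complete protein-coding transcripts, on the mRNA strand, for 7-base matches to bases 2 to 8. The members, lists and rules were chosen with earlier results of these data known. Named were the members and, of each list, genes with a 1.5-fold difference (at most 4 in each direction) and the 2 with the highest mean FPKM, with sort and endothelial markers beside them; 1 gene that this rule selects is not reported here. Likeness of patterns cannot be ranked over 2 libraries, and protein sequences were not used here. Alternatives were other pseudocounts (0.1 and 5), a filter at a mean FPKM of 5 or none, 3 rescalings, fold thresholds of 1.5 and 4, means, undivided reads, read shares, 6-base matches and all 3′UTRs joined. Python 3.11.15, NumPy 2.4.6, pandas 2.3.3, SciPy 1.17.1 and matplotlib 3.10.9 were used, and the procedures were tested on simulated data.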

Additional observations from a re-analysis of the deposited data

How the results depend on the processing

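No paired analysis was possible because there was 1 library per group. All 10 members kept the sign of their log2 fold change under the 5 alternative scalings and pseudocounts, and Tgfbr3 ranged from -1.01 to -0.69, the ends being pseudocounts of 0.1 and 5. At a pseudocount of 0.1 Tgfbr3 passed the 2-fold threshold, which made 1 of the 10 members. The number of genes with a 2-fold difference was 739 at a pseudocount of 0.1, 113 at a pseudocount of 5 and 210 for genes averaging at least 5 FPKM, and it was 1436 at 1.5-fold and 26 at 4-fold. The median of the members was -0.24 for genes averaging at least 5 FPKM, which leaves out 5 of them. The median of the latency and activation genes was -0.11 without a filter on low values. In place of the median, the mean was -0.33 for the extracellular binding partners and -0.088 for the transcriptional targets, whose median changed sign between scalings, from -0.02 to 0.01. By reads not divided by length, Tgfb3 made up 61.0% of the ligand reads with PRP and 60.3% with vehicle. With reads not divided by 2, the interval of Tgfb1 also left out no change, 0.786 to 0.967. With 6-base seed matches Tgfbr2 also held a let-7f match, which made 3 members, against 25.5% of the genes. Protein sequence comparisons were not run. The genes with few reads, Tgfb2 and Ltbp1, have the widest intervals, and culture-to-culture variation was not measured.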

Other observations

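The endothelial markers Kdr and Tek, which stand beside Eng above, were named after their values were seen. Kdr, the receptor VEGFR2, had 4.23 FPKM with PRP and 1.499 FPKM with vehicle, and Tek, the angiopoietin receptor, had 4.73 FPKM and 3.56 FPKM. They were the 2 endothelial markers tested, and both were higher in the PRP library, whereas Eng was lower. The mural marker Myh11, smooth muscle myosin, had 16.7 FPKM with PRP and 9.86 FPKM with vehicle, while the other 2 mural markers tested, Cspg4 and Des, had log2 fold changes of -0.11 and -0.17.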
